A study of Mus musculus with 6 samples.

Results

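The genes described here are 10 genes for granins and other proteins of the dense core granule, Chga, Chgb, Scg2, Scg3, Vgf, Ptprn, Ptprn2, Ica1, Syp and Resp18, chosen by name from the 54281 genes of the table, of which 27044 had a count in any library. All 10 were found by their Ensembl identifier. They were measured in GLUTag cells, a mouse enteroendocrine line that expresses proglucagon and serves as a model of the L-cell. The 6 libraries are of 1 line in 1 condition, with no agent named in the labels, grown on Matrigel for 48 h in medium with 1 g/L glucose and 10% FBS. Plate 1 held 3 wells at passage 23 and plate 2 held 3 wells at passage 27, so that the plates cannot be told apart from the passages, and p-values over libraries measure the spread between wells of 2 cultures. Each count stands for the 3′ end of a polyadenylated transcript, and levels are given as CPM, the share of all counts of a library scaled to 1e6, which allows genes to be compared without a correction for length.

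Granins are acidic, soluble proteins that aggregate with calcium in the trans-Golgi network and enter the dense core granules in which endocrine cells and neurons store peptide hormones. Chromogranins and secretogranins help to form the granule core and are themselves cut into peptides, while membrane proteins such as IA-2 and phogrin (Ptprn and Ptprn2) span the granule membrane. In the gut, chromogranin A is widely used as a marker of enteroendocrine cells, and GLP-1 is released from granules of this kind.

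Libraries held from 21399987 to 36488198 counts each, and every pair of libraries differed by more than sampling noise (lowest chi-square per gene 10.6 over 15 pairs). Enteroendocrine markers were found at 1 CPM or more in every library for 6 of 6 genes, with a summed level of 5014 to 5783 CPM on plate 1 and 5649 to 6773 CPM on plate 2. The summed level was 0.709 to 1.74 CPM for 5 enterocyte genes and 0.333 to 1.60 CPM for 4 haematopoietic genes. For 4 fibroblast genes it was 4.54 to 6.96 CPM, nearly all from Col1a2, with Col3a1 at 0. For 4 goblet cell genes it was 35.4 to 41.3 CPM, nearly all from Tff3, with Muc2 at a mean of 0.125 CPM. Plate 2 library 2 stands apart over many genes. Against the mean of plate 2 libraries 1 and 3, it was over 1.5-fold lower for 757 (15.0%) and over 1.5-fold higher for 124 (2.46%) of the 5031 genes averaging 30 CPM or more. Several results that rest on this library are given with and without it. The noncoding RNA Bc1 was the most abundant gene of each library and took 10.5% ± 1.28 of the counts on plate 1 and 4.18% ± 0.678 on plate 2 (SD, n = 3). The TMM factors, which adjust the totals for differences in composition between libraries, were 0.886 to 0.933 on plate 1 and 1.08 to 1.11 on plate 2. The part of Bc1 in these factors was not tested.

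The sequences upstream of the start sites are shown for the 3 granin genes in which a cyclic AMP response element (CRE) was found. The 250 bases before the RefSeq start were read for 9 of the 10 genes, in 11 windows of GRCm38.p6, and Vgf was not read. The capitals mark the full element TGACGTCA, which reads the same on both strands, or the variant TGACGTAA, searched on both strands. The windows are chr2:132781392-132781641 on the plus strand for Chgb, chr12:102554691-102554940 on the plus strand for Chga and chr1:79440027-79440276 on the minus strand for Scg2.
Chgb: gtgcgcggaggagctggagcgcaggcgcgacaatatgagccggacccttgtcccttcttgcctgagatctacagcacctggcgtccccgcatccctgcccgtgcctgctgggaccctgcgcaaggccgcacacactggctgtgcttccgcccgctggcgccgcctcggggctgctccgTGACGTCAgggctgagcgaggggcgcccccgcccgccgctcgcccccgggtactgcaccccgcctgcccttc
Chga: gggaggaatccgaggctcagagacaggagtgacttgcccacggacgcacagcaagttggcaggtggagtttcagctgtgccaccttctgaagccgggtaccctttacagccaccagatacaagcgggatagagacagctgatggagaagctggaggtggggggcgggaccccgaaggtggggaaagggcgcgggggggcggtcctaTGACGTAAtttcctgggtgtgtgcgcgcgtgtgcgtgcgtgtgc
Scg2: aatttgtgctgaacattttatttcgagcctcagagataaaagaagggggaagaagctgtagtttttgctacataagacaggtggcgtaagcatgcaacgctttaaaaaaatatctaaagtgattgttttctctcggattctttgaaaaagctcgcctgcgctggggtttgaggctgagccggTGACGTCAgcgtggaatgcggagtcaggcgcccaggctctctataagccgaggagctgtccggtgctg

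The element begins 72 bases before the RefSeq start in Chgb, 68 bases in Scg2 and 44 bases in Chga, where it is the variant. The gene spans given below come from GENCODE, whose starts differ from those of RefSeq, so that the window of Chgb and the element of Scg2 lie inside those spans. Of 27025 genes with a window of the same length in the mouse table, 1.77% held the full element and 0.525% the variant. The shorter core TGACG, which is part of both, was present before 6 of the 9 genes read and before 19.8% of all genes. Scg3, Ptprn, Ptprn2, Ica1, Syp and Resp18 held neither of the longer forms in these windows. Whether the element bears on the level of any of these genes in any library was not tested.

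Of the chromogranins, Chgb was the most abundant of the 10 genes in each library. Chgb (ENSMUSG00000027350, chromosome 2 of GRCm38, 132781278 to 132795079, plus strand) encodes chromogranin B and had 555 ± 92.0 CPM (SD, n = 6), from 10136 to 21900 counts. Its level was 546, 453 and 474 CPM in plate 1 replicates 1, 2 and 3 and 552, 708 and 596 CPM in plate 2 libraries 1, 2 and 3. It was rank 254 of all genes by mean CPM, and it made up 54.4% ± 2.34 (SD, n = 6) of the summed CPM of the 5 granins Chga, Chgb, Scg2, Scg3 and Vgf.

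Chga (ENSMUSG00000021194, chromosome 12, 102554969 to 102565028, plus strand), which encodes chromogranin A, had 219 ± 38.1 CPM (SD, n = 6) and was rank 718. It lay at 218, 213 and 222 CPM in plate 1 replicates 1, 2 and 3, and at 186, 290 and 186 CPM in plate 2 libraries 1, 2 and 3. The plate 1 libraries thus lay close together, between the lower pair of plate 2 libraries and the high plate 2 library 2. Without that library the mean was 205 ± 17.5 CPM. Within each library Chgb exceeded Chga, by 1.09 to 1.67 on the log2 scale of CPM + 1. The mean difference was 1.34 ± 0.24 (SD, n = 6), or 2.53-fold (exact two-sided sign-flip permutation p = 0.03125, the smallest that 6 libraries can give, and 0.0469 after Benjamini-Hochberg adjustment over the 6 pairs chosen by role). The difference was 1.17 on plate 1 and 1.51 on plate 2.

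**Figure D1:**
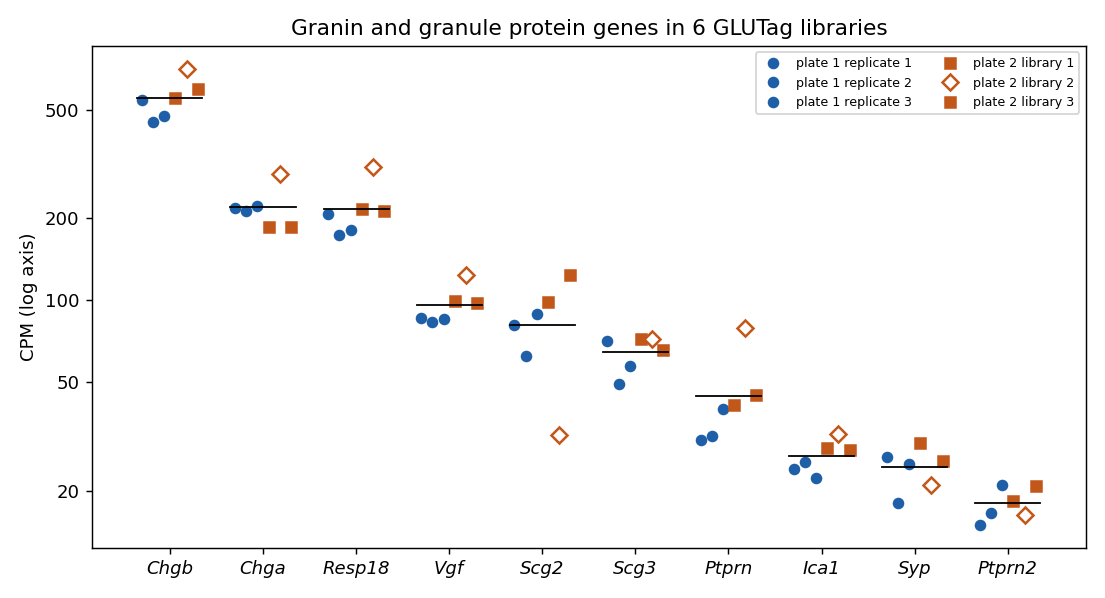
CPM on a log axis of the 10 genes in each of the 6 libraries, with circles for plate 1, filled squares for plate 2 libraries 1 and 3, an open diamond for plate 2 library 2 and a line at the mean of 6. Chgb lies highest with 453 to 708 CPM, and the diamond of Scg2 at 32.1 CPM lies below its other libraries while those of Chga, Resp18 and Ptprn lie above.

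Vgf, Scg2 and Scg3 lay lower. Vgf (ENSMUSG00000037428, chromosome 5, 137026392 to 137033351, plus strand), whose product is a precursor of several secreted peptides, had 95.9 ± 15.4 CPM (SD, n = 6). Its values were 85.9, 83.2 and 85.1 CPM on plate 1 and 99.7, 124 and 97.5 CPM on plate 2, in the order of replicates and libraries used above. The plate 1 values of Vgf lay close together, and plate 2 library 2 was the highest.

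Scg2 (ENSMUSG00000050711, chromosome 1, 79434669 to 79440120, minus strand) encodes secretogranin II, the precursor of secretoneurin. It had 81.2 ± 31.6 CPM (SD, n = 6), with 80.8, 62.4 and 89.3 CPM on plate 1 and 98.6, 32.1 and 124 CPM on plate 2. Plate 2 library 2, with 991 counts, was the lowest of the 6, while the other plate 2 libraries were the highest. Its mean was 91.1 ± 22.9 CPM without that library, and its coefficient of variation went from 38.9% to 25.1%. Each of the 6 libraries had more Chgb than Scg2, with a mean log2 difference of 2.85 ± 0.80 (exact sign-flip permutation p = 0.03125, adjusted p = 0.0469), and by 2.54 without plate 2 library 2.

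Scg3 (ENSMUSG00000032181, chromosome 9, 75643189 to 75684056, minus strand) encodes secretogranin III, which binds chromogranin A and cholesterol-rich granule membrane. It had 64.5 ± 9.28 CPM (SD, n = 6), with 70.7, 49.4 and 57.3 CPM on plate 1 and 72.0, 71.8 and 65.8 CPM on plate 2. Plate 2 library 2 did not stand out for this gene. Scg2 was above Scg3 in 5 of 6 libraries, and the mean difference of 0.23 ± 0.71 on the log2 scale was within the spread (exact permutation p = 0.469, adjusted p = 0.563). It was 0.50 without plate 2 library 2, where Scg3 was the higher by 1.14.

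Of the transmembrane proteins, Ptprn was the more abundant. Ptprn (ENSMUSG00000026204, chromosome 1, 75247027 to 75264502, minus strand) encodes IA-2, a phosphatase-like granule protein and an autoantigen of type 1 diabetes. It had 44.5 ± 17.7 CPM (SD, n = 6), with 30.6, 31.6 and 40.0 CPM on plate 1 and 41.3, 78.8 and 44.8 CPM on plate 2. Plate 2 library 2 was the highest and stood apart from the other 5, and without it the mean was 37.7 ± 6.22 CPM.

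Ptprn2 (ENSMUSG00000056553, chromosome 12, 116485720 to 117276849, plus strand) encodes phogrin, the close relative of IA-2. It was the lowest of the 10 genes in each library, with 18.0 ± 2.52 CPM (SD, n = 6) from 359 to 761 counts. Its values were 15.0, 16.5 and 21 CPM on plate 1 and 18.2, 16.2 and 20.9 CPM on plate 2. The plates overlapped. Each of the 6 libraries had more Ptprn than Ptprn2, with a mean log2 difference of 1.2 ± 0.51 (exact sign-flip permutation p = 0.03125, adjusted p = 0.0469), with a difference of 2.21 in plate 2 library 2 and of 1.00 on average in the other 5. The annotation places 2 processed pseudogenes of over 0.3 CPM within the span of Ptprn2, Gm17807 on its strand with 0.356 CPM and Gm48119 on the other with 1.09 CPM.

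Resp18 (ENSMUSG00000033061, chromosome 1, 75272199 to 75278415, minus strand) encodes an endoplasmic reticulum and granule protein of neuroendocrine cells that resembles the luminal part of IA-2. It lies next to Ptprn on the same strand, 7696 bases away with no annotated gene between them. At 217 ± 48.1 CPM (SD, n = 6) and rank 723, it lay next to Chga in the order of levels. It had 207, 174 and 181 CPM on plate 1 and 216, 308 and 213 CPM on plate 2. The mean was 198 ± 19.5 CPM without plate 2 library 2.

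The order of Chga and Resp18 differed between the plates. Chga was the higher in 3 of 3 libraries of plate 1, by 0.22 on the log2 scale, and Resp18 in 3 of 3 libraries of plate 2, by 0.16. The exact permutation p of the difference between plates was 0.1, which is the smallest that 3 against 3 can give. The ratios Ptprn over Ptprn2, Ica1 over Ica1l and Syp over Sypl did not overlap between the plates either, each with the same exact permutation p of 0.1. These are 4 of 13 distinct ratios, several of which share a gene, and ratios of other genes were not examined. Of single genes, 39.2% did not overlap between the plates in CPM, which depends on the scaling to the total count. The ratios are taken within a library, where the scaling cancels, so that share is not a background for them.

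Ica1 (ENSMUSG00000062995, chromosome 6, 8630527 to 8778488, minus strand) encodes ICA69, a cytosolic protein with a BAR domain that partners with PICK1 on immature granules. It had 26.8 ± 3.56 CPM (SD, n = 6), with 24.0, 25.5 and 22.2 CPM on plate 1 and 28.6, 32.2 and 28.1 CPM on plate 2. Its relative Ica1l was lower in 6 of 6 libraries, at 6.49 CPM. The difference was 1.92 ± 0.23 in log2 units (exact sign-flip permutation p = 0.03125, adjusted p = 0.0469).

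Syp (ENSMUSG00000031144, chromosome X, 7638471 to 7653256, plus strand) encodes synaptophysin, a membrane protein of small synaptic-like vesicles that is also used as a neuroendocrine marker. It had 24.4 ± 4.24 CPM (SD, n = 6), with 26.6, 18.0 and 25 CPM on plate 1 and 29.9, 20.9 and 25.7 CPM on plate 2. The antisense gene Gm14703 overlaps it with 0.431 CPM. The more widely expressed relative Sypl had 23.3 CPM, and the mean difference from Syp of 0.09 ± 0.34 was within the spread (exact permutation p = 0.563, the same after adjustment). It ran from 0.025 to 0.20 when 1 library was left out, the lowest without plate 1 replicate 1 and the highest without plate 2 library 2. Syp was the higher in 3 of 3 libraries of plate 1, by 0.32 to 0.41, while on plate 2 the difference ran from -0.45 to 0.09.

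**Figure D2:**
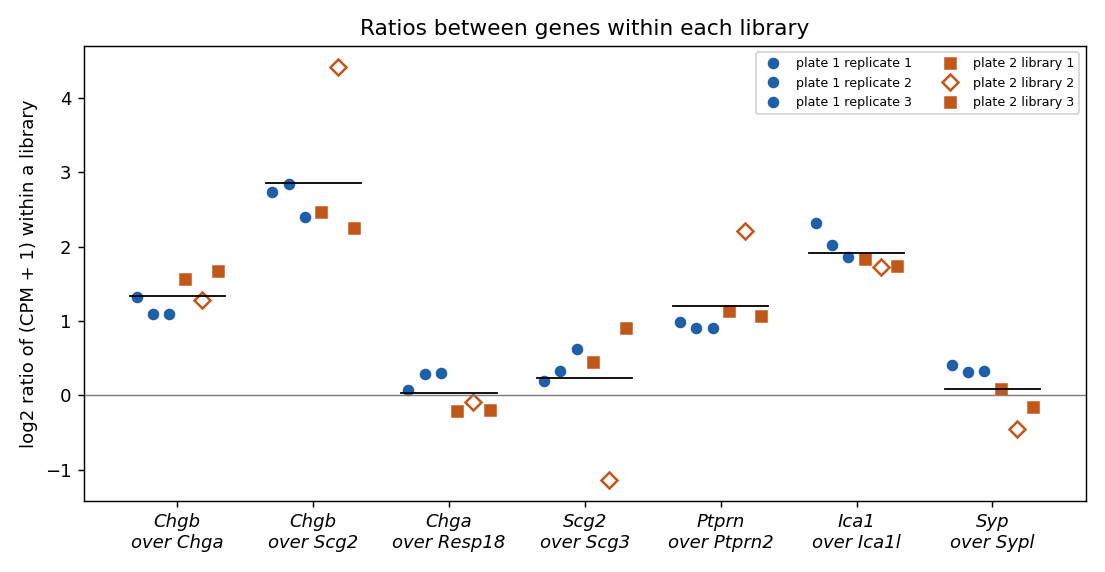
Log2 ratio of (CPM + 1) between genes within each library for the 6 pairs chosen by role and for Chga over Resp18, with symbols as in the plot of levels and a line at the mean. Chgb over Chga stays between 1.09 and 1.67, the diamond of plate 2 library 2 departs for each ratio with Scg2 or Ptprn, and Chga over Resp18 is above 0 on plate 1 and below 0 on plate 2.

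By mean CPM over the 6 libraries the order was Chgb, Chga, Resp18, Vgf, Scg2, Scg3, Ptprn, Ica1, Syp and Ptprn2. Without plate 2 library 2 the mean was 91.1 CPM for Scg2 and 90.3 CPM for Vgf, so that these genes changed places. The 9 neighbours in the order from all 6 libraries, which comes from the same values, were compared in the same way. The first gene was the higher in 6 of 6 libraries for 4 of these pairs, Chgb over Chga, Resp18 over Vgf, Ptprn over Ica1 and Syp over Ptprn2 (each exact permutation p = 0.03125, adjusted p = 0.0703 over the 9 pairs). Scg3 exceeded Ptprn in 5 of 6 (exact permutation p = 0.0625, adjusted p = 0.113). Plate 2 library 2 was the exception, and the mean log2 difference was 0.59 with all libraries and 0.73 without it. For Chga and Resp18 (adjusted p = 0.781), Vgf and Scg2, Scg2 and Scg3, and Ica1 and Syp (each adjusted p = 0.527), the exact permutation test showed no difference beyond the spread.

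Across the libraries, the summed CPM of the 10 genes was 1127 to 1304 on plate 1 and 1343 to 1683 on plate 2, the highest in plate 2 library 2. The 5 granins took 75.6% ± 1.44 (SD, n = 6) of that sum. The sums rest on scaling to the column total, so no direction between plates is read from them. The coefficient of variation over the 6 libraries had a median of 17.0% for the 10 genes and of 23.0% for all genes tested. Without plate 2 library 2 it was 12.9% and 20.2%.

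Between plates the levels of the 10 genes were compared in 1 fit over 15669 genes with edgeR's quasi-likelihood test and TMM scaling. Of the 10 genes 0 had an adjusted p under 0.05, beside 0.185% of all genes tested, and 0 had an unadjusted p under 0.05, beside 16.1% of all genes. The adjusted p ran from 0.473 for Ptprn to 0.958 for Scg3. DESeq2 and limma-voom also called 0 of the 10 genes, beside 3.73% and 0.191% of all genes. Plate 2 was the higher for 5 genes and the lower for 5, and the median log2 fold change was 0.01 for the 10 genes and 0.03 for all genes. With no scaling beyond the total count the median of all genes was 0.30 and the 10 genes were all higher on plate 2, so that no direction between plates is given from CPM. The CPM ranges of the plates did not overlap for Chgb, Resp18, Vgf, Ptprn and Ica1, 5 of 10 genes beside 39.2% of all genes.

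The call of Chga between plates depended on the libraries included. With all libraries its log2 fold change was -0.24 (standard error 0.18, adjusted p = 0.565 from edgeR). Without plate 2 library 2 it was -0.53 (standard error 0.09, adjusted p = 0.00149 from edgeR), and Chga was the 1 gene of the 10 with an adjusted p under 0.05 there. In that fit 12.0% of 15894 genes were called, so that 1 of 10 is near the share of all genes. The log2 fold change of Chga was -0.12 without plate 2 library 1 and -0.13 without plate 2 library 3. For Scg2 the log2 fold change was -0.14 (standard error 0.48) with all libraries and 0.22 (standard error 0.14) without plate 2 library 2, and for Ptprn it was 0.43 (standard error 0.26) and 0.03 (standard error 0.13), with adjusted p from 0.342 to 0.929 in edgeR.

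**Figure D3:**
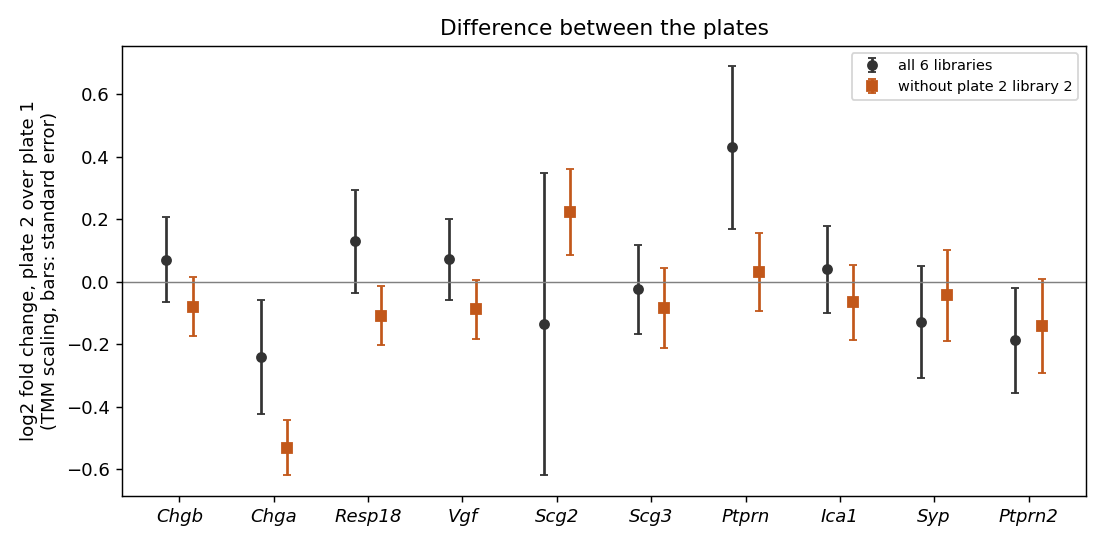
Log2 fold change of plate 2 over plate 1 with its standard error for the 10 genes, from the fit with all 6 libraries (circles) and from the fit without plate 2 library 2 (squares). The bar of Scg2 is the widest with all libraries, and Chga moves from -0.24 to -0.53.

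In plate 2 library 2, set against the mean of plate 2 libraries 1 and 3, the ratio of CPM was 1.83 for Ptprn, 1.56 for Chga, 1.43 for Resp18, 1.26 for Vgf, 1.23 for Chgb, 1.14 for Ica1 and 1.04 for Scg3. It was 0.829 for Ptprn2, 0.752 for Syp and 0.288 for Scg2. Of the 7 granule genes averaging 30 CPM or more, 2 were past 1.5-fold above (2.46% of such genes) and 1 past 1.5-fold below (15.0% of such genes). By the gap to the nearest library over the whole range of CPM, Chga, Resp18 and Ptprn had plate 2 library 2 as a highest library far from the other 5. This held for 3.27% of all genes tested, and 6.44% had any library that far from the others. The 4 genes on the list of regulators were all lower in that library, with ratios of 0.181 for Insm1, a transcription factor of endocrine cells, 0.509 for Rest, 0.615 for Creb1 and 0.679 for Neurod1. Over the genes averaging 30 CPM or more, the median log2 difference was -0.03 and 15.0% were past 1.5-fold below. Neurod1 was not past 1.5-fold, and Rest, with a mean of 2.32 CPM, is outside those genes. Among the 6 enteroendocrine markers the ratio was 0.498 for Nkx2-2, 0.669 for Gcg, 0.679 for Neurod1 and 0.869 for Pax6. It was 1.00 for Isl1 and 1.83 for Cck, so that the markers did not all move in 1 direction.

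The GC content of transcript ends moved with this difference. Across the 4892 genes averaging 30 CPM or more that had such a sequence, Spearman's rho between GC content over the final 200 nt and the log2 difference was 0.521, as a description over genes of the same libraries. Of the 10 genes Scg2 had the lowest GC content at its ends, 26.0%, beside a median of 42.1% over those genes. It was 35.5% for Chgb, 44.0% for Chga, 48.0% for Resp18 and 59.6% for Ptprn. Vgf had the highest mean over its coding transcripts, 60.0%, with a log2 difference of 0.33, below the 0.86 of Ptprn. The coding transcripts ran from 47% to 77% in Vgf and from 49% to 65% in Ptprn, so the order of these genes in GC content is not settled. Scg3 with 45.0% and Ica1 with 42.9% differed by 0.06 and 0.18. Against the direction of this trend, Chgb was below the median in GC content and higher in that library, by 0.30 on the log2 scale, and Syp and Ptprn2, with 52.8% and 55.5%, were lower. Ica1, Syp and Ptprn2 average under 30 CPM and were not among the genes of the correlation. The part of GC content in the values of these genes was not tested.

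**Figure D4:**
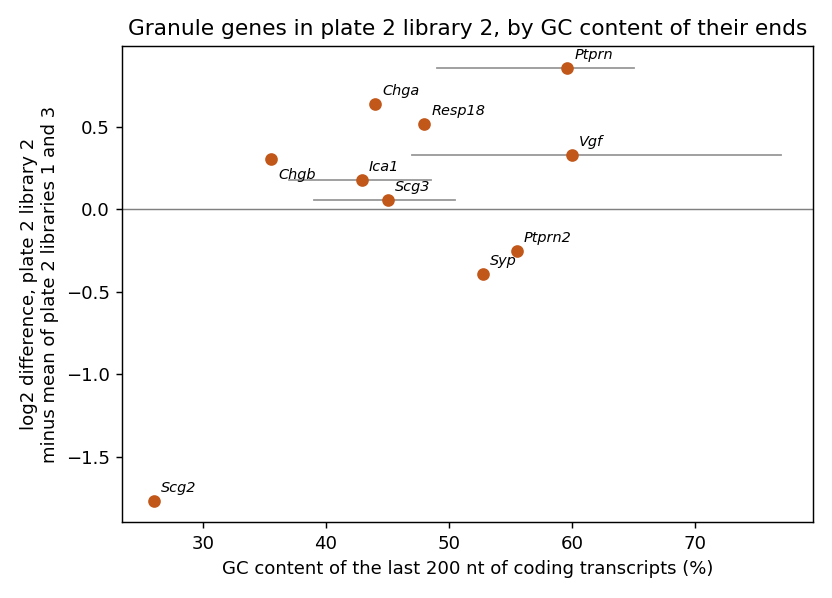
Log2 difference of (CPM + 1) between plate 2 library 2 and the mean of plate 2 libraries 1 and 3 against mean GC content over the final 200 nt of each coding transcript, with grey lines from the lowest to the highest transcript. Scg2 lies alone at 26.0% GC and -1.77, while the other 9 genes lie between -0.39 and 0.86.

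The other genes of the granule pathway were read from lists of 65 genes. All 8 genes for cargo processing had at least 1 CPM in every library, led by Cpe with 388 ± 134 CPM, Scg5 with 219 ± 43.0 CPM and Pcsk1 with 82.9 ± 27.2 CPM (each SD, n = 6). These encode carboxypeptidase E, the convertase chaperone 7B2, itself counted among the granins, and prohormone convertase 1/3. Pcsk1n, for the granin-like proSAAS, had 62.0 CPM. Scg5 was thus at the level of Chga, and Cpe lay between Chgb and Chga.

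Of the 16 genes for granule biogenesis, all 16 had at least 1 CPM in every library, and Rab2a with 216 CPM, Pick1 with 94.5 CPM and Vps53 with 81.7 CPM were the highest. Pick1, the partner of the Ica1 product, was thus above Ica1 itself. Of 20 genes for docking and priming, 16 had at least 1 CPM in every library. The highest were Rph3al (Noc2) with 182 CPM, the small GTPase Rab3c with 146 CPM and the calcium sensor Syt7 with 131 CPM. Rph3a, Sytl4 and Doc2b stayed under 1 CPM in each library.

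Of 10 vesicle membrane genes 8 passed 1 CPM in every library, and the synaptic vesicle proteins Sv2a, Sv2b and Sv2c led with 110, 90.9 and 66.9 CPM. The vesicular monoamine transporter gene Slc18a1 had 5.87 CPM, while Slc18a2 had a count of 0 in all 6 libraries, which allows up to 3 counts in each. Among the 7 relatives of synaptophysin, Syngr2 had 52.1 CPM, Syngr1 25.6 CPM and Sypl 23.3 CPM, and Sypl2 had a count of 0 in each library. Of the 4 regulators, Neurod1 had 617 CPM, Insm1 172 CPM and Creb1, whose product binds the CRE, 71.1 CPM. Rest, which encodes a repressor of neuronal and neuroendocrine genes, had 2.32 CPM.

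**Figure D5:**
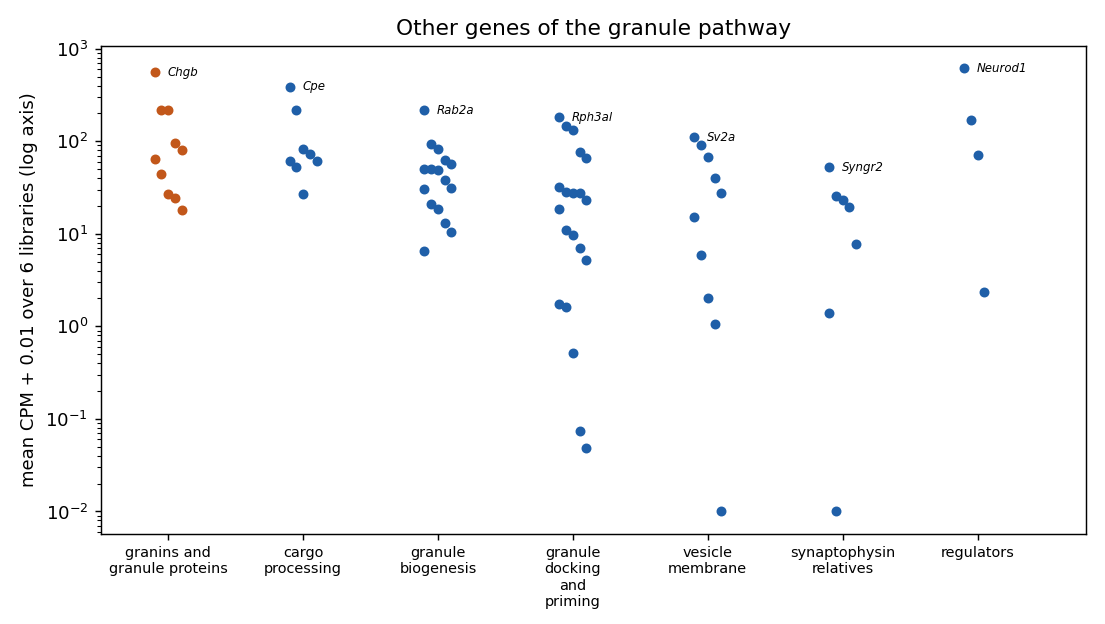
Mean CPM over 6 libraries, with 0.01 added, on a log axis for the 10 genes and for each list of other pathway genes, 1 point a gene and the highest gene of each list named. Chgb, Cpe and Neurod1 lead their lists, and the lowest points, for Slc18a2 and Sypl2, are genes with a count of 0.

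Between plates, 0 of the 61 tested genes of these lists had an adjusted p under 0.05 by edgeR, beside 0.185% of all genes. The lowest adjusted p was that of Rab3c (log2 fold change -0.53, standard error 0.10, adjusted p = 0.0832 from edgeR). DESeq2 called 1 of the 61 genes, Rab3c again (log2 fold change -0.55, adjusted p = 0.00273), beside 3.73% of all genes. By limma-voom 0 were called, beside 0.191% of all genes. At an unadjusted p under 0.05 there were 12 such genes of 61, near the 16.1% of all genes. Of them 4 were among the 8 cargo processing genes, with Pcsk1, Cpe and Cpd higher on plate 2 and Pcsk2 lower. The log2 fold change of Cpe was 0.50 with all libraries and 0.24 without plate 2 library 2 (adjusted p = 0.110 from edgeR). Without plate 2 library 2, 8 of the 61 tested genes passed the adjusted threshold, near the 12.0% of all genes. Pcsk1, Rab27b and Sv2b were higher on plate 2 in that fit, by 0.45, 0.57 and 0.37 on the log2 scale. With all libraries the values of these genes were 0.56, 0.19 and 0.43. Pcsk2, Rab3c, Rph3al, Syt7 and Syngr1 were lower without plate 2 library 2, with log2 fold changes of -0.58, -0.57, -0.31, -0.48 and -0.37. With all libraries these were -0.46, -0.53, -0.18, -0.33 and -0.20.

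The genes whose pattern over the 6 libraries was most like that of a chromogranin or of Scg2 were found by the root mean square difference of centred log2 CPM with TMM scaling, among 5030 genes averaging 30 CPM or more. For Chga these were Anapc11, Krtcap2 and Tex101, with differences of 0.06, 0.06 and 0.06, against a median of 0.31 over all genes compared. Genes picked as the closest lie below the median by choice, so the median gives only the scale of the differences. Anapc11 had 618 CPM in plate 2 library 2 and 442 and 446 CPM in plate 2 libraries 1 and 3. For Chgb they were Hexa, Rtn3 and Hacd3, at 0.05, 0.05 and 0.05, where the median over all genes was 0.22. For Scg2 they were Yipf4, Paip2 and Cdc42ep3, at 0.06, 0.06 and 0.08, against a median of 0.64. Yipf4 had 16.1 CPM in plate 2 library 2 and 51.6 and 70.3 CPM in plate 2 libraries 1 and 3.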

How the data were processed

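The 3′ mRNA libraries of 6 wells were trimmed by the authors with Trim Galore 0.6.4 and assigned with Salmon 1.5.1 to transcripts of GRCm38 without length correction, then summed per gene. The table the authors deposited holds expected counts for each gene without normalization. Of all values, zeros included, 8.06% were not exactly whole. The strand setting of the counting is not given in the sources used here. Plate 1 columns were matched to replicates 1, 2 and 3. Plate 2 columns matched the plate but no single replicate, and keep the number in the column name.

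CPM was computed over the column total. Symbols and positions came from GENCODE M21 on GRCm38 (54107 of 54281 identifiers found), and upstream sequences from RefSeq (GRCm38.p6). Within-library ratios used CPM + 1. Counts were rounded for edgeR 4.0.16 (TMM, filterByExpr, robust quasi-likelihood, adjusted p under 0.05), DESeq2 1.42.0 and limma-voom 3.58.1, in R 4.3.3, tested on simulated data. Python 3.11.15 and scipy 1.17.1 were used. The genes and lists were chosen with earlier results of these data known. Named were the 10 genes, the 3 highest of each list and the 3 genes most alike, and Pcsk1n, Slc18a1, Rest, Cpd, Pcsk2, Rab27b and the genes quoted for their plate difference or overlap were added after their values were seen.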

Additional observations from a re-analysis of the deposited data

Results flagged for a closer look

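Of the 10 genes, 3 had 1 library far from the other 5 by the gap to the nearest library over the whole range, for which the 95% limit with 6 libraries is 0.625. The ratio was 0.707 for Ptprn, 0.685 for Resp18 and 0.654 for Chga, and in each the highest library was plate 2 library 2. Chance gives about 1 in 20 in a single group. Of all 15669 genes tested, 6.44% had a library past the same limit and 3.27% had plate 2 library 2 as the high one, and the 3 genes share that library.

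The log2 ratio of Chga over Resp18 was above 0 in each plate 1 library and below 0 in each plate 2 library, a difference between plates of -0.38 (exact permutation p = 0.1, the smallest possible). Of 13 ratios compared, some of which share a gene, 4 did not overlap between the plates with this p, and ratios of other genes were not examined. This was the 1 of them above 0 throughout one plate and below 0 throughout the other. Its cause was not tested.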

How the results depend on the processing

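Pseudocounts of 0.1 and 5 CPM kept the direction of all 6 pairs by role and all 9 neighbours, while scaling cancels in ratios within a library and tests nothing there. Leaving out 1 library at a time moved Chga over Resp18 between -0.027 and 0.075, Scg2 over Scg3 between 0.092 and 0.50, Vgf over Scg2 between 0.020 and 0.47, Ica1 over Syp between 0.046 and 0.20, and Syp over Sypl between 0.025 and 0.20.

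The number of genes called between plates was 29 with edgeR, 584 with DESeq2, 1482 with no scaling beyond the total count and 545 with no filter, and from 0 to 1911 when 1 library was left out. The 1911 came without plate 2 library 2. The edgeR count was 0 without plate 1 replicate 1 (1611 at an unadjusted p under 0.05) and without plate 2 library 1 (2121 unadjusted), 2 and 6 without plate 1 replicates 2 and 3, and 9 without plate 2 library 3. Of the genes called, 2 were higher and 27 lower on plate 2 with edgeR, 1411 and 71 with no scaling, 157 and 427 with DESeq2, and 255 and 290 with no filter. The granule genes called were 0, and 0 to 1 over these omissions, the 1 being Chga at -0.53 without plate 2 library 2. With no scaling beyond the total count the log2 fold change turned to 0.022 for Chga, 0.13 for Scg2, 0.24 for Scg3, 0.078 for Ptprn2 and 0.14 for Syp. Over the omissions it ran from -0.080 to 0.16 for Chgb, -0.52 to 0.22 for Scg2, -0.12 to 0.12 for Scg3, -0.089 to 0.14 for Vgf, -0.066 to 0.11 for Ica1, -0.11 to 0.22 for Resp18, -0.53 to -0.12 for Chga, 0.031 to 0.61 for Ptprn, -0.29 to -0.058 for Ptprn2 and -0.27 to -0.023 for Syp. The cause was not tested. No paired analysis was run, because the titles number the wells of plate 1 from 1 to 3 and those of plate 2 from 4 to 6. The columns of plate 2 restart at 1, and that number could not be matched to a titled replicate.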
